A study of Mus musculus with 4 samples.

Results

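Solitary uterus sites are ESR1 peaks of the mouse uterus that stand alone within 50 kb on the chromosome. The sites were chosen by the positions of the called peaks in both tissues: a uterus peak was taken as solitary when its summit, the base with the highest tag pile-up, had neither another uterus summit nor a liver summit within 50 kb and when the peak overlapped no liver peak by even 1 bp. On the autosomes 3666 of 24527 uterus peaks met these conditions, which was 14.9% (Wilson 95% interval 14.5 to 15.4). The whole uterus list held 24836 peaks and the liver list 6932, so the solitary sites were 3666 of the 31768 peaks of the series.

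The peaks came from ChIP-seq of ESR1, in which chromatin bound by the receptor is recovered with an antibody and sequenced. Sites were taken from the uterus, and the liver served to exclude regions bound there too; both tissues were flash-frozen from female C57BL/6J mice aged 8 weeks (strain label C57BL/6), with 1 ESR1 library and 1 input control for each. No treatment, genotype or hormonal state is given beyond this, and the labels do not say whether a library pooled several animals. Sequencing gave 22298008 unique ESR1 and 22020520 control tags in uterus, against 20016495 and 18781348 in liver. With 1 library per tissue there is no spread between animals. All intervals below are 95% intervals that cover counting error or the variation across peaks of 1 library, treat peaks as independent, and come with no p-value.

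ESR1, the estrogen receptor alpha, belongs to the nuclear receptors and binds DNA as a dimer once an estrogen occupies it. It recognises a palindromic estrogen response element directly, and it can also reach DNA through other factors such as AP-1 or SP1. In the uterus it acts in epithelium, stroma and muscle and drives growth during the estrous cycle, largely from enhancers far from gene starts that often lie in groups. In whole tissue, binding in few cells and weak binding in many cells cannot be told apart.

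Solitary sites were thinly covered and narrow, with a median fold enrichment over the control close to that of the other peaks. They held a median of 45 tags per peak (44 to 46), against 57 (57 to 58) in the 20861 other autosomal uterus peaks, a difference of -12 (-13.4 to -11). Their median width was 522 bp (517 to 527), against 592 bp (589 to 595). Fold enrichment, the ratio MACS gives of ChIP signal to the local background estimated from the control, was close in both: a median of 15.05 (14.85 to 15.36) at solitary sites and 14.59 (14.45 to 14.75) at the others. The difference of 0.46 (0.204 to 0.800) was small, and its sign depended on the comparison. It was -0.15 (-0.394 to 0.224) when set against the clustered uterus peaks alone and -0.15 (-0.436 to 0.177) without the condition on liver. It was -0.44 (-0.759 to -0.109) when both lists were first cut to peaks of at least 10-fold. That cut is made on the compared value itself. It also changes the set, to 3840 solitary peaks of 19547, because weak neighbours are removed. The differences in tags, width, tag density and MACS score kept their sign in all 9 alternatives tried.

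A wider peak collects more tags, so the counts were also taken per length. The tag density had a median of 83.5 tags per kb of peak at solitary sites and 93.2 at the others (difference -9.66, -10.7 to -8.50). Dividing by length does not match the peaks by width. When the list was cut by width into 10 parts of nearly equal size, the median of the 10 density differences was -4.31 (range -33.2 to 2.23). Solitary density was lower in 9 parts and higher in 1. The MACS score, which is 10 times the −log10 of the peak's p-value and grows with the number of tags, had medians of 186 and 224 (difference -38.0, -45.0 to -31.1). Summits lay near the middle of the peak, at a median of 35.5 bp from the centre in solitary and 42 bp in other peaks. As a percent of the distance from centre to edge, these distances were 14.1% and 14.8%, and the interval of that difference included 0 (-1.38 to 0.0425 percentage points).

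The gap in tags widened towards the strong end of the list. At the 10th percentile solitary sites held 26 tags and the others 31, so the solitary value was 83.9% of the other. At the 90th percentile they held 103 and 158 tags, or 65.2%. Fold enrichment spanned a narrower range at solitary sites than at the other peaks pooled. The 10th percentile was 8.72 in solitary and 8.34 in other peaks, while the 90th was 34.3 and 37.8. The low end was not particular to solitary sites. The 10th percentile was 8.81 in peaks with another uterus summit but no liver summit within 50 kb. It was 7.99 in peaks with a liver summit within 50 kb but no overlap, and 6.82 in peaks overlapping a liver peak. Tags and fold enrichment were also less closely tied among solitary sites. Spearman's rho between them was 0.371 across the 3666 solitary sites and 0.534 across the others, given as a description because all peaks share 1 library.

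**Figure D1:**
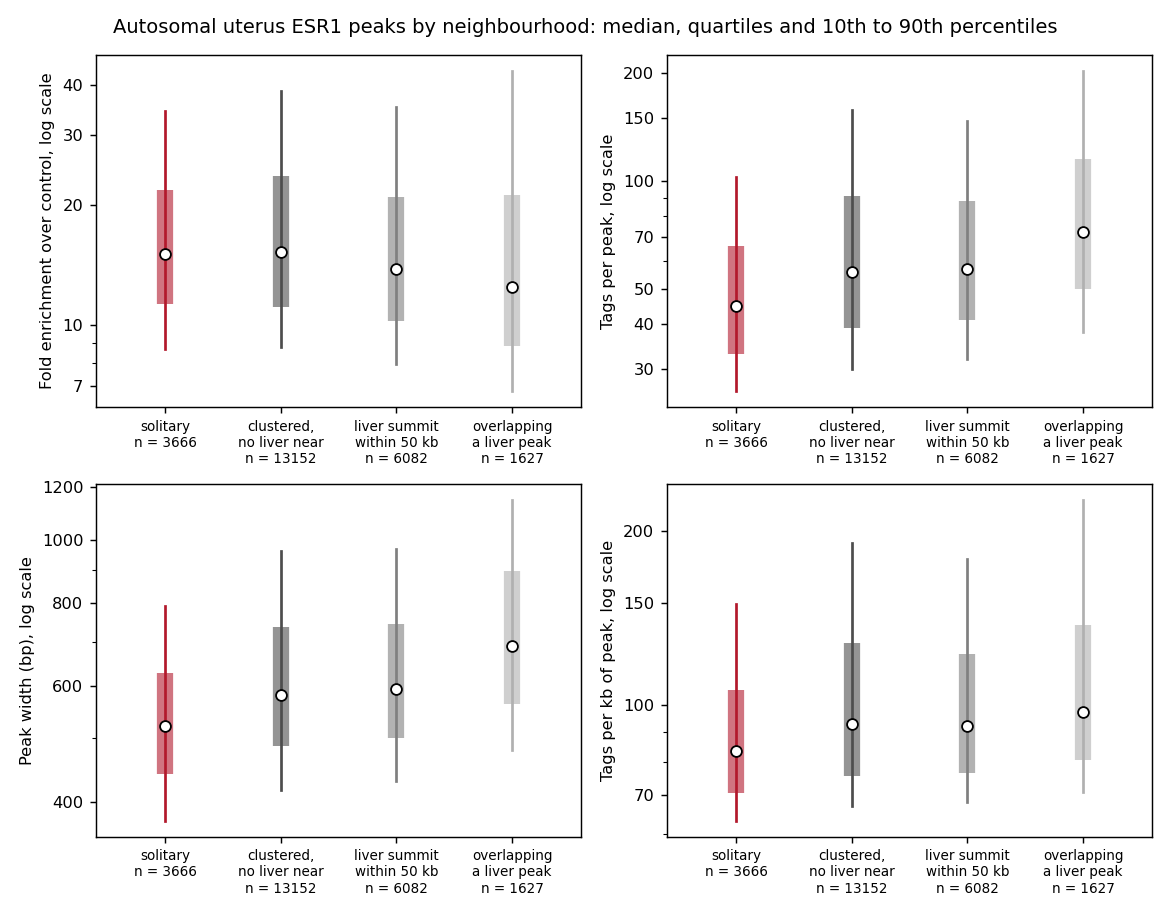
Fold enrichment, tags per peak, peak width in bp and tags per kb (all log axes) of autosomal uterus peaks in 4 classes: solitary, clustered with no liver summit within 50 kb, with a liver summit within 50 kb but no overlap, and overlapping a liver peak. Circles are medians, thick bars the quartiles and thin lines the 10th to 90th percentiles; solitary sites have the lowest medians for tags (45), width (522 bp) and tag density (83.5 per kb), while their median fold enrichment (15.05) lies beside that of the clustered peaks (15.2).

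Each of the other classes had a higher median of tags than the solitary sites. The first comprised 13152 clustered peaks, with another uterus summit but no liver summit within 50 kb; they had a median of 56 tags, a width of 581 bp and a fold enrichment of 15.2. The second comprised 6082 peaks with a liver summit within 50 kb but no overlap, and their medians were 57 tags, 594 bp and 13.8-fold. The third comprised 1627 peaks that overlapped a liver peak, with 72 tags, 689 bp and 12.4-fold. Solitary sites thus lay below all classes in tags and width, with differences of -27 to -11 tags and -167 to -59 bp. In fold enrichment they lay above the peaks near a liver summit by 1.25 (0.988 to 1.61) and above the overlapping peaks by 2.63 (2.09 to 3.17), and the difference from the clustered peaks had an interval that included 0.

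The combination of few tags and usual enrichment can be put in 1 quotient, the tags per kb of a peak divided by its fold enrichment. It is built from the peak's own values and is not a measurement of the control library. Its median was 5.40 tags per kb per unit of enrichment at solitary sites (5.32 to 5.52), against 6.08 at clustered peaks, 6.59 at peaks near a liver summit and 7.70 at overlapping peaks. Solitary sites therefore reached a given enrichment with fewer tags. Within deciles, solitary sites were compared with all other autosomal uterus peaks pooled, not with the clustered peaks alone. Within each decile of the list by tags the median fold enrichment of solitary sites was the higher one, by 1.43 to 10.5. Within each decile by fold enrichment their median tags were the lower ones, with differences of -66 to -1.5. Within deciles of width the fold difference went both ways, being higher in 7 deciles and lower in 3, and the tag difference was -2 at the median decile. The part of the local control level in these differences was not tested.

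Solitary sites were spread over the whole range of strength, with uneven shares at the ends. Of them, 709 fell in the decile of autosomal uterus peaks with the fewest tags, or 19.3% (18.1 to 20.7), where 10% of all peaks lie because the list was cut into 10 parts of nearly equal size, called deciles here. In the decile with the most tags there were 153, or 4.17% (3.57 to 4.87). By width, 18.3% were in the narrowest decile and 4.06% in the widest. By fold enrichment, 8.89% were in the lowest decile (8.01 to 9.86) and 8.40% in the highest (7.55 to 9.34), both slightly under 10%. The low share in the lowest decile was not particular to solitary sites, since 7.81% (7.36 to 8.28) of the clustered peaks lay there. Of the peaks near a liver summit 12.3% lay there, and of the overlapping peaks 21.5%. Seen from the list, solitary peaks made up 28.9% of the decile with the fewest tags and 6.24% of that with the most. By fold enrichment their share was highest in the fifth decile, between 12.9- and 14.7-fold, at 17.9%, and 12.6% in the last.

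**Figure D2:**
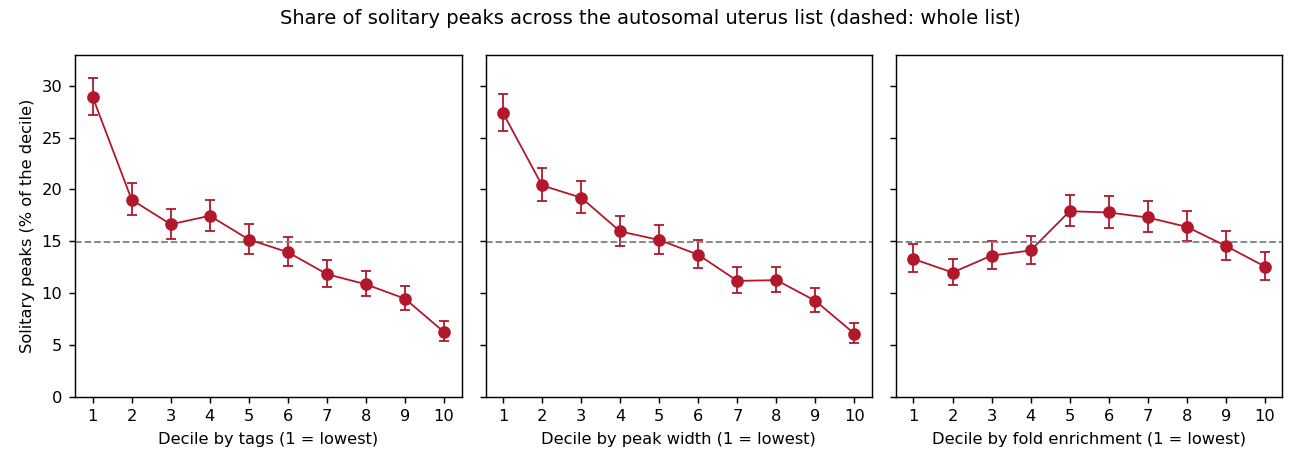
Share of solitary peaks, in percent, in each decile of the autosomal uterus list ordered by tags, by peak width and by fold enrichment, with Wilson 95% intervals; the dashed line is the share in the whole list (14.9%). The share is 28.9% in the lowest and 6.24% in the highest decile of tags, declines likewise with width, and has a shallow hump in the middle for fold enrichment.

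Strong solitary sites were present, at lower shares than in the list as a whole. At least 50-fold enrichment was found at 151 solitary sites, or 4.12% (3.52 to 4.81), against 5.54% of all autosomal uterus peaks. At least 100-fold enrichment was found at 10, or 0.273% (0.148 to 0.501), against 0.506%. Peaks near a liver summit had similar shares, 4.88% (4.37 to 5.45) at 50-fold and 0.345% (0.226 to 0.527) at 100-fold. Clustered peaks had 5.95% and 0.616%, and overlapping peaks 7.99% and 0.738%. At least 200 tags were found at 73 solitary sites, or 1.99% (1.59 to 2.50), against 5.8% of all peaks. A score of exactly 3100, a value that recurs at 277 of all autosomal uterus peaks (1.13%), was listed for 2 solitary sites. The reverse combination, at least 20-fold enrichment with fewer than 40 tags, was met by 146 solitary sites, or 3.98% (3.40 to 4.67), against 1.46% of all peaks; these limits were chosen after the medians had been seen.

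The 10 solitary sites of highest enrichment lay in both sparse and crowded regions. All positions refer to mm9, copied from the deposited list, and folds, tags and scores are the authors' values per peak. The leading site, at chr16:73362677-73363203, had 161-fold enrichment and 227 tags, and only 1 autosomal uterus peak was higher in fold. The nearest uterus summit was 117 kb away and the nearest liver summit 2404 kb. The second, at chr8:13996543-13997407, had 132-fold enrichment and 243 tags, and its nearest uterus and liver summits both lay 75.9 kb away. The third, at chr14:102282013-102282624, had 130-fold enrichment and 221 tags, with a uterus summit at 77.6 kb.

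The fourth, at chr12:61381532-61382065, was the remotest of the leading group. It had 125-fold enrichment and 163 tags, no other uterus summit within 500 kb on either side, and a nearest liver summit 1061 kb away. The fifth, at chr9:98921403-98922214, was 121-fold enriched with 217 tags and lay in a crowded region instead, with 30 other uterus summits within 500 kb on either side and none within 77.6 kb. Next came chr3:53958327-53959928 (120-fold, 376 tags), chr2:23003415-23004153 (115-fold, 237 tags) and chr3:31484742-31485284 (111-fold, 178 tags). The last of the 10 were chr8:18216366-18217219 (102-fold, 267 tags) and chr2:73636687-73637229 (101-fold, 138 tags). Across these 10 sites the nearest uterus summit was 50.2 to 770 kb away and the nearest liver summit 75.9 to 3366 kb away.

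The 5 sites with the most tags were broad. The first, at chr9:77868634-77870694, held 810 tags over 2061 bp at 73.1-fold enrichment, and 12 autosomal uterus peaks held more. It was followed by chr14:46333640-46336386 with 674 tags over 2747 bp at 52.0-fold. The next were chr4:122568165-122569452 (455 tags, 42.9-fold), chr9:13391200-13392410 (438 tags, 37.3-fold) and chr7:132011249-132012591 (387 tags, 43.0-fold). All 5 were at least 1211 bp wide, against the median of 522 bp for solitary sites. At the low end, the 3 solitary sites of lowest enrichment were chr1:172104990-172105796 (4.10-fold, 60 tags), chr3:30898463-30899357 (4.17-fold, 64 tags) and chr16:13109695-13110575 (4.84-fold, 59 tags). These were wide too, at 807 to 895 bp, and their tag counts were above the solitary median.

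Distances describe how alone the sites were, and they follow from the rule. The nearest other uterus summit lay at a median of 96.5 kb (quartiles 67.9 and 162 kb, highest 2772 kb), and the nearest liver summit at 326 kb (143 and 742 kb, highest 7230 kb). A liver summit was the nearest of all for 504 sites, or 13.7%. For the 3653 sites with a summit on both sides, the stretch between the flanking summits of either tissue had a median length of 314 kb (quartiles 204 and 557 kb). The condition on liver removed 1000 of the 4666 peaks that had no other uterus summit within 50 kb. Uterus summits were also counted from 50 to 500 kb on either side, which leaves out the window the rule uses. This count is still not independent of the rule, which leaves more lone peaks where peaks are sparse. The median number of these summits was 9 (8 to 9) around solitary sites, against 14 (14 to 14) around the other peaks. There were 20 or more around 387 solitary sites, or 10.6% (9.60 to 11.6), against 29.0% (28.3 to 29.6) of the others. No liver summit lay within 1 Mb of 639 solitary sites, or 17.4% (16.2 to 18.7), against 9.06% (8.58 to 9.57) of the clustered peaks, which also had none within 50 kb.

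The 5 most isolated sites held 18 to 86 tags, on both sides of the solitary median of 45, at 14.8- to 29.8-fold enrichment. The remotest, at chr15:18119488-18120196, had its nearest uterus summit 2772 kb away, with 86 tags at 29.8-fold enrichment. The following ones were chr7:65932315-65932795 (46 tags, 15.0-fold), chr15:48421813-48422067 (18 tags, 14.8-fold), chr6:61221756-61222065 (24 tags, 19.7-fold) and chr12:63114193-63114615 (27 tags, 17.1-fold). The nearest summit of either tissue lay 1733 to 2772 kb from these 5. In all, 124 of the 3666 solitary sites had no summit of either tissue within 500 kb, or 3.38% (2.84 to 4.02). For 35 sites there was none within 1 Mb, or 0.955% (0.687 to 1.32). By the rule, no other autosomal uterus peak can meet these limits.

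Among the solitary sites themselves, those farther from the nearest summit had fewer tags and higher enrichment. The 1320 sites with a neighbour at 50 to 75 kb had a median of 48 tags (46 to 50) and 14.3-fold enrichment (14.0 to 14.9). The 1063 sites at 100 to 200 kb had 44 tags and 15.2-fold, and the 124 sites beyond 500 kb had 37 tags (32 to 42) and 19.0-fold (17.1 to 20.6). Median width was 541 bp in the nearest bin and 466.5 bp in the farthest, and the quotient of tag density and enrichment was 5.90 in the nearest and 4.22 in the farthest. The trends were shallow against the spread between sites. Across all solitary sites, Spearman's rho with the distance to the nearest summit was -0.133 for tags, 0.0948 for fold enrichment and -0.184 for the quotient, as a description across peaks of 1 library.

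**Figure D3:**
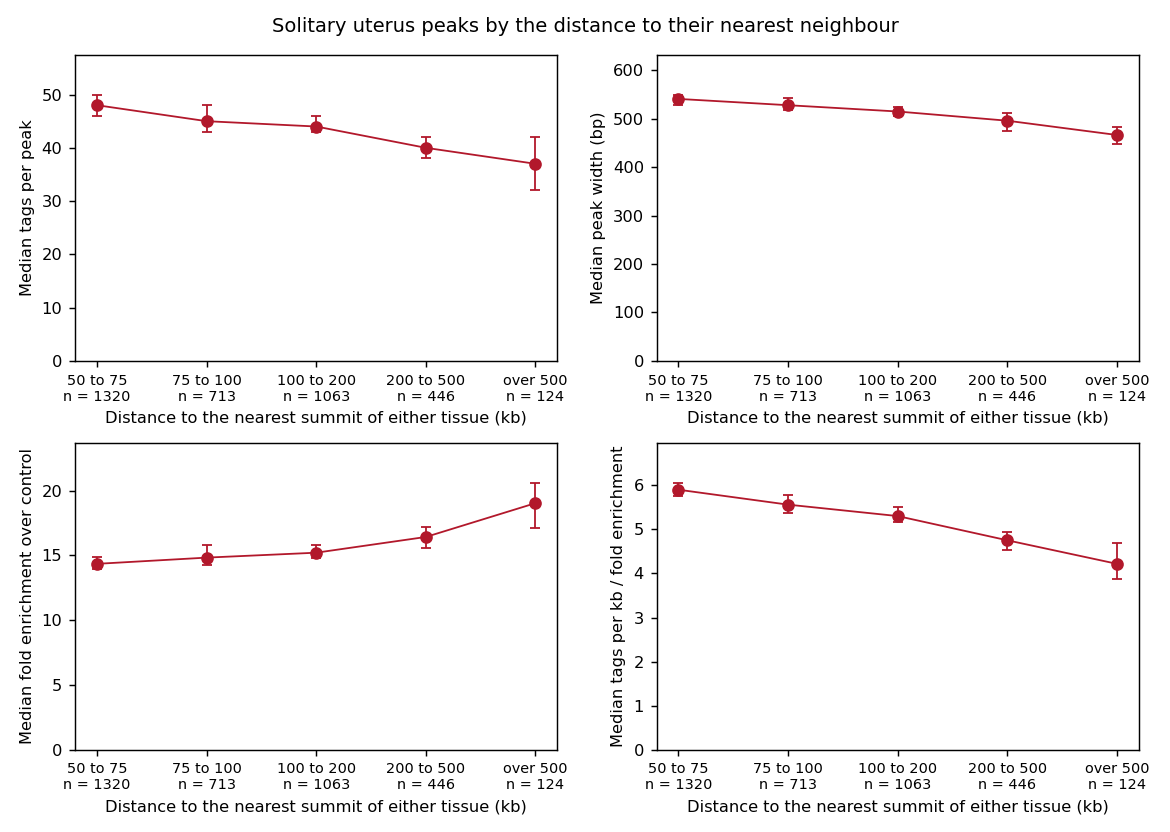
Median tags per peak, peak width in bp, fold enrichment and the quotient of tags per kb and fold enrichment for solitary uterus peaks, by the distance in kb to the nearest summit of either tissue; error bars are 95% intervals of the median. Tags, width and the quotient are lower in the remoter bins (48 tags at 50 to 75 kb, 37 beyond 500 kb), and fold enrichment is higher (14.3 and 19.0).

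The 79 solitary sites whose nearest summit lay at 50.03 to 50.99 kb had a median of 52 tags and 15.95-fold enrichment. The 76 peaks just outside the rule, with a nearest summit at 49.01 to 49.97 kb and no liver overlap, had 49 tags and 14.9-fold. The 2 solitary sites nearest to the limit were chr11:57362215-57362911 (63 tags, 8.24-fold) and chr18:83520097-83520369 (20 tags, 15.2-fold). The 2 peaks nearest to it on the other side were chr1:12490498-12490969 (28 tags, 12.2-fold) and chr1:76134308-76134919 (70 tags, 17.9-fold).

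Solitary sites formed the low end of a gradient in run size. Uterus summits with gaps of at most 50 kb were joined into runs, and only runs free of liver summits within 50 kb and of liver overlaps were kept, so that a run of 1 is a solitary site. The median was 45 tags in runs of 1 (n = 3666 peaks), 49 in runs of 2 (2574 peaks) and 52 in runs of 3 (1953 peaks). It was 55 in runs of 4 to 5, 59 in runs of 6 to 9, and 67 (64 to 70) in the 1748 peaks of runs of 10 or more. Width followed the same order, with 522 bp in runs of 1 and 631 bp in the longest runs. Fold enrichment moved little: its medians were 15.05 in runs of 1, 14.8 in runs of 3 and 16.2 (15.5 to 16.9) in runs of 10 or more. The quotient of tag density and enrichment was 5.40 in runs of 1 and 6.32 in the longest runs.

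**Figure D4:**
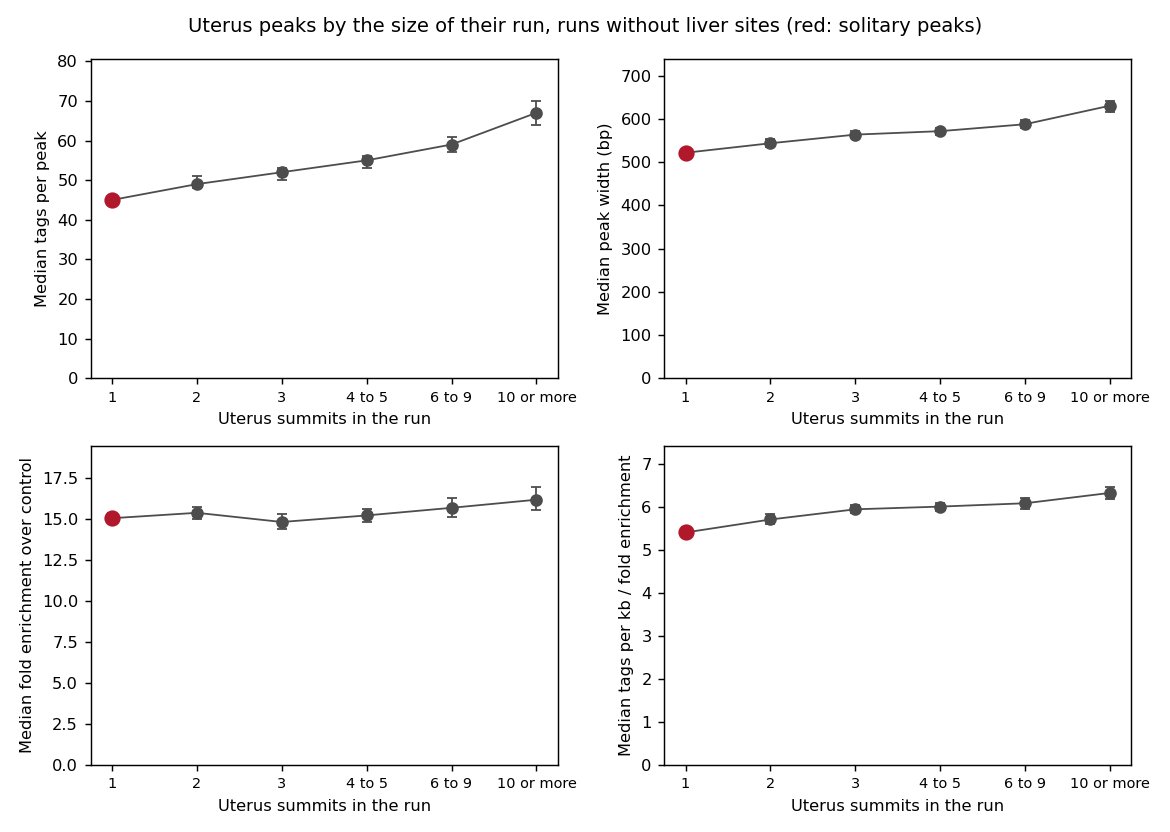
Median tags per peak, peak width in bp, fold enrichment and the quotient of tags per kb and fold enrichment by the number of uterus summits in a run, for runs without liver sites; error bars are 95% intervals of the median and the red point is the solitary class. Tags (45 in runs of 1, 67 in runs of 10 or more) and width grow with run size, while fold enrichment stays between 14.8 and 16.2.

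The differences were not those of a few chromosomes. Median tags were lower at solitary sites than at other uterus peaks on 19 of 19 autosomes, with differences of -19 to -7 tags, and so was median width, with differences of -97.5 to -39 bp. Tag density, MACS score and the quotient were also lower on 19 of 19. Median fold enrichment was higher at solitary sites on 15 autosomes, equal on 2 and lower on 2, with differences of -0.925 to 1.76. These differences are from all other uterus peaks pooled. Over all autosomes together, the fold difference from the clustered peaks alone was -0.15 (-0.394 to 0.224).

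Solitary sites were found on each autosome. Chromosome 2 had the most, at 298, and chromosome 19 the fewest, at 89. Per Mb between the first and last peak of a chromosome, chromosome 9 had 1.79 and chromosome 7 had 1.12. The share of a chromosome's uterus peaks that were solitary was highest on chromosome 3, at 19.6% (17.6 to 21.8), which had the lowest density of uterus peaks, 8.61 per Mb. It was lowest on chromosome 11, at 11.1% (9.69 to 12.8), which had the highest density, 13.7 per Mb. A relation of this kind is built into a rule that excludes near neighbours.

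**Figure D5:**
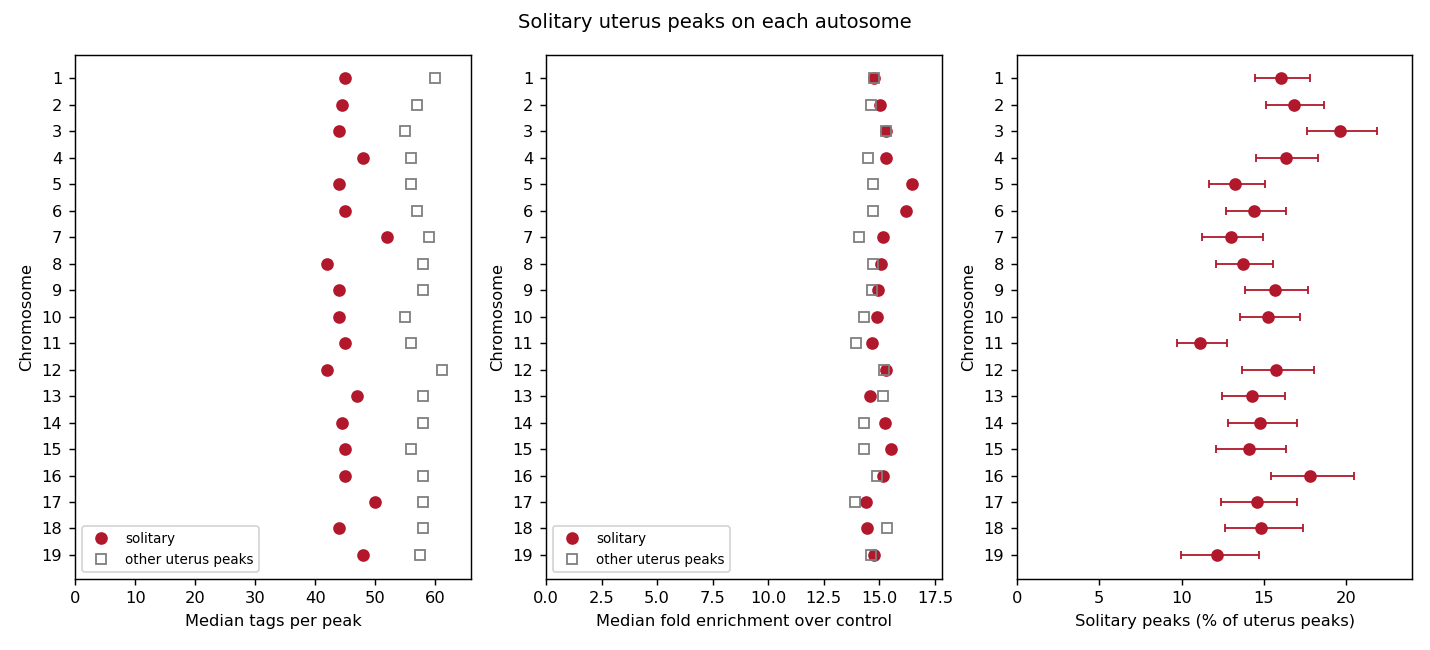
Median tags per peak and median fold enrichment of solitary (filled red) and other uterus peaks (open grey) on each autosome, and the share of uterus peaks that were solitary in percent with Wilson 95% intervals. Solitary medians for tags lie left of the others on all 19 autosomes, the fold medians overlap, and the share is lowest on chromosome 11 (11.1%) and highest on chromosome 3 (19.6%).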

How the data were processed

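Peak lists of the uterus and the liver ESR1 library were used; the input controls entered only through the authors' peak calling. Per the submitters' processing notes, the authors used MACS 1.3.7.1 and the mm9 build. Each library was called against 1 control, per the file headers, with a p-value cutoff of 1e-10, 50 bp tags and an effective genome size of 2.7 Gb. An aligner is not named in the labels or headers. The deposited tags are raw counts per peak without scaling. Fold enrichment, as deposited, is a ratio to the local control background. The deposited score is MACS's −log10 p-value multiplied by 10. False discovery rates were deposited in percent and are 0 at all uterus peaks, as rounded. These values depend on the library and its control and were compared only within a list.

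The summit was the peak start plus the listed summit offset minus 1. Medians have distribution-free binomial order-statistic intervals, differences of medians square-and-add intervals of these, and shares Wilson intervals. The class assignment was tested on simulated positions, and the intervals of medians and of their differences on simulated independent, continuous values. Their coverage for tied counts, or for peaks that depend on each other, was not tested. Deciles were made by rank. Regions named were the 10 solitary peaks of highest fold enrichment, the 5 with the most tags, the 5 most isolated, the 3 of lowest fold enrichment and 2 on each side of the 50 kb limit. The members, classes and measures were chosen with earlier results of these data known; runs, the quotient, the bins of distance and the count of summits from 50 to 500 kb were added while the data were analysed. Motifs, sequences and nearby genes were planned but not analysed here, since the annotation at hand is of another build (GRCm38) and coordinates were not converted. The tools were statsmodels 0.14.6, matplotlib 3.10.9, scipy 1.17.1, pandas 2.3.3 and numpy 2.4.6 under Python 3.11.15.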

Additional observations from a re-analysis of the deposited data

Results flagged for a closer look

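Median fold enrichment of solitary minus other peaks was 0.46 in the uterus list and -0.49 in the liver list when the same rule was applied there with the tissues exchanged. This was singled out because the directions are opposite when the tissues are exchanged. With 1 library each, no test between the tissues was made (the difference was not tested), and the liver interval included 0 (-0.892 to 0.0512). In the uterus list the difference was negative in 3 of the 9 alternatives tried. The exclusion is also unlike in the 2 tissues, since the lists hold 24836 uterus and 6932 liver peaks. The 638 solitary liver peaks, 9.25% of 6896 autosomal liver peaks, had a median of 10.7-fold, against 11.2-fold at the other liver peaks. Their tags differed in the same direction as in uterus, with a median of 50 against 59 (difference -9, -10.4 to -6.76), and so did their width, with 600 against 636 bp.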

How the results depend on the processing

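The differences in tags, width, tag density and MACS score stayed negative in all 9 alternatives, with ranges of -17 to -10 tags, -99 to -58 bp, -13.7 to -8.95 tags per kb and -65.6 to -32.0 units of score. The sign of the fold enrichment difference did not hold. It was 0.46 as reported, -0.15 without the condition on liver, and -0.15 against the clustered uterus peaks with no liver summit within 50 kb. With both lists cut to at least 10-fold, a cut on the compared value itself, it was -0.44. The cause of these changes was not tested. The fold enrichment difference was 0.11 at a distance of 20 kb, 1.24 at 100 kb and 2.285 at 200 kb. The last distance was chosen after the data had been seen.

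The number of solitary peaks follows from the distance and was 7684 at 20 kb, 1633 at 100 kb and 570 at 200 kb. The share of them in the decile with the most tags was 5.26%, 2.69% and 1.75% at these distances, and the share in the decile of highest fold enrichment was 10.5% at 200 kb. At 200 kb the differences were -17 tags, -99 bp and -11.2 tags per kb, and at 100 kb the width difference was -81 bp. Without the condition on liver they were -10 tags and -58 bp, and against clustered peaks the width difference was -59 bp. With both lists cut to scores of 200 or more the differences were -15 tags, -11.0 tags per kb and -62.7 in score. That cut is made on 1 of the compared values, and it also changes the set, to 3474 solitary peaks of 13236. With at least 10-fold the differences were -16 tags, -13.7 tags per kb and -65.6 in score. Leaving out peaks under 5-fold or including chromosome X moved no result outside its interval or its count by over 1.5 times.

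The planned motif windows, mismatch setting and gene annotation alternatives were not run. No paired analysis was possible because each tissue has 1 library and the labels give no replicate numbers. Depth limits the tags of faint peaks: the fewest at a solitary site was 16, and a site below the cutoff in liver or beside a solitary site is not in the lists, so being alone refers to called peaks.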

Other observations

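Chromosome X lies outside the rule, and its uterus peaks stood alone more often. Of 309 uterus peaks on X, 126 met the same distances, or 40.8% (Wilson interval 35.4 to 46.3), against 14.9% on the autosomes. X has few uterus peaks in all, and a rule that excludes near neighbours leaves more lone peaks where peaks are sparse. The share was not adjusted for this. The 126 had a median of 36 tags and 17.5-fold enrichment, against 42 tags and 16.8-fold at the 183 other X peaks. The intervals of these differences included 0 (-12.7 to 0.325 tags, and -1.63 to 3.21 in fold enrichment).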
